A study of Homo sapiens with 9 samples.

Results

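The genes that carry the signal of the T cell receptor were examined in ALL-SIL, a human T cell acute lymphoblastic leukemia (T-ALL) line driven by the transcription factor TLX1, after knockdown of *PHF6*. The set held 35 genes, all of which had a probe on the array, among 19721 genes with a symbol. They were chosen by function and not by their values: 5 kinases, 11 adaptors, 6 effectors and exchange factors, 8 phosphatases and other brakes, 2 costimulatory or inhibitory receptors and 3 NFAT transcription factors. Each gene was read from its brightest probe over all arrays. Cells had received by electroporation either control siRNA or one of the *PHF6* reagents, siRNA1 and siRNA2, and RNA was labelled with Cy3 and hybridised to 9 one-colour arrays, 3 per group. The labels give 3 independent biological replicates numbered 1 to 3 in each group. Collection was at 96 h after electroporation, although a free-text description gives 72 h. All groups are the same cell line, cultured without a stated receptor stimulus. The methods name a single siRNA and a pool of siRNAs against *PHF6*, and which of them is siRNA1 is not stated.

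When the T cell receptor binds its ligand, the kinase LCK phosphorylates the CD3 chains and ZAP70, and ZAP70 phosphorylates the scaffold LAT. LAT and LCP2 then assemble PLCG1, VAV1, GRB2 and SOS1, from which calcium, protein kinase C theta and RAS carry the signal to NFAT, NF-kB and AP-1. Phosphatases such as PTPN6 and PTPN22, CSK, CBL ubiquitin ligases and diacylglycerol kinases restrain these steps. The phosphatase PTPRC instead keeps LCK primed, although it is grouped with the brakes here. In the thymus the pre-T cell receptor uses the same machinery, and cortical thymocytes and many T-ALL lines already express most of it.

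Values are on a generalized log2 scale (glog2) after variance stabilizing normalization (VSN). A difference of 1 corresponds to a 2-fold change for bright probes and understates the change of dim ones, and values of different probes are not comparable as levels. A gene was tested when 3 or more arrays marked its probe as well above background, which 34 of the 35 genes met. *PHF6* served as the check of the knockdown. Its values were 11.06, 11.16 and 10.85 with control siRNA, 9.38, 9.68 and 9.11 with siRNA1, and 9.19, 9.27 and 9.13 with siRNA2 (replicates 1, 2 and 3, the order used throughout). All 6 *PHF6* siRNA arrays lay below all 3 controls, with a log2 difference of -1.73 and an adjusted p of 0.00248 by limma.

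The promoters of *CD28*, a costimulatory receptor, and *SIT1*, an inhibitory transmembrane adaptor, are shown because these genes of the set passed the test with the replicate block described below. Each is the RefSeq window of 300 bases in GRCh38.p14, from 250 bases before the transcription start to 50 after it, on the strand of the gene. Capitals mark the RUNX core TGTGGT and, read on the opposite strand, the core TGGGAA shared by RBPJ and Ikaros in *CD28*, and in *SIT1* the ETS core AGGAAG on the opposite strand. The *CD28* window is chr2:203706389-203706688 on the plus strand, and the *SIT1* window is chr9:35650882-35651181 on the minus strand.
CD28: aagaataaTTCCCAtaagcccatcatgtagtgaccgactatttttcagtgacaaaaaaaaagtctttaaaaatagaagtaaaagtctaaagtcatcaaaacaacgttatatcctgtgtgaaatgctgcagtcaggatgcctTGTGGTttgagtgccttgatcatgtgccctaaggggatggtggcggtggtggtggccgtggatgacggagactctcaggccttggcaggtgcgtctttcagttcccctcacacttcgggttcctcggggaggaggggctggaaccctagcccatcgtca
SIT1: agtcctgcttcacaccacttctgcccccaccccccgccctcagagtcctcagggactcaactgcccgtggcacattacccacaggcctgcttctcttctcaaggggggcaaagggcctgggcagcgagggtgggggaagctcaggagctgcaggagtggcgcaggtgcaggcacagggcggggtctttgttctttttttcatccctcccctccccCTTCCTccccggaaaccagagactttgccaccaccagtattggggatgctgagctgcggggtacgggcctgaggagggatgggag
Promoter windows were found for 32 of the 35 genes, 57 windows in all because some genes have several starts, and were searched on both strands for 7 motifs. The ETS core stood in 32 of the 57 windows (56.1%), against 33.6% of 35116 windows of the same length over all genes and 33.4% of 16444 windows of tested genes. Some windows of a gene overlap, as for *CBLB*, so a site can be counted more than once. By gene, the ETS core stood in a window of 22 of the 32. Genes with several windows have more chances of a match, and no share by gene was counted over all genes. The count by gene is therefore not to be set against the shares of windows. The ETS core was found in the windows of *LCK*, *VAV1*, *PTPN6* and *CTLA4* among others, and it was not in that of *CD28*. The RUNX core stood in 19.3% of the windows, against 13.1% over all genes and 11.1% over tested genes. In the same order, the shares were 21.1%, 24.0% and 22.5% for TGGGAA and 21.1%, 17.9% and 17.8% for the E-box CAGCTG. For the GATA motif AGATAA (8.77%, 10.3% and 6.63%) the share of the set lay below that of all genes and above that of tested genes. The TCF motif CTTTGA stood in 8 of the 57 windows, against 12.9% and 9.95%, and the AP-1 motif TGANTCA in 5.26%, against 7.71% and 5.49%. These are matches of letters and say nothing of binding. Median GC content was 61.7% in the windows of the set, 58.7% in all windows and 63.7% in the windows of tested genes.

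The receptor signalling machinery was broadly expressed. For both siRNAs against control, *CD28* and *SIT1* passed, both lower, only with arrays paired by replicate number. Those calls were lost when any replicate number was left out. Of the 34 genes tested, 32 were well above background on all 9 arrays, including *LCK*, *FYN*, *ZAP70*, *LAT*, *LCP2*, *PLCG1*, *VAV1* and *PTPRC*. With both *PHF6* siRNAs against control siRNA, 14 genes were higher and 20 lower, with a median log2 difference of -0.04, and over all 14681 genes tested it was also -0.04. Under normexp correction with quantile normalization the split was 18 higher and 16 lower, and under the 75th percentile scaling or with background-subtracted signal it was 11 and 23. The 75th percentile scaling was itself applied to log2 of the background-subtracted signal, so the latter settings share an input. Leaving out single arrays moved the median between -0.09 and 0.04, above 0 without control siRNA replicate 2. By limma, none of the 34 passed an adjusted p of 0.05 (0 of 34, with 2 at an unadjusted p under 0.05 and a lowest adjusted p of 0.644), against 0.00681% of all genes. That share is 1 of the 14681 genes, *PHF6* itself, so the fit called no gene but the target of the siRNAs. In that fit, 936 of the 14681 genes had an unadjusted limma p under 0.05. Arrays with the same replicate number deviated together from their group means, so the replicate number was also fitted as a block. With the block *CD28* and *SIT1* fell (2 of 34, both lower, 7 at an unadjusted p under 0.05), against 2.36% of all genes in either direction and 1.21% lower. Here and below, the percentages of all genes are for adjusted p. Counts at an unadjusted p are not to be set against them and are not read as an excess. The 936 genes belong to the fit without the block and are no background for such counts with it. For the fit with the block, the share of all genes at an unadjusted p is not given here. The other 32 genes did not pass in that fit either.

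**Figure D1:**
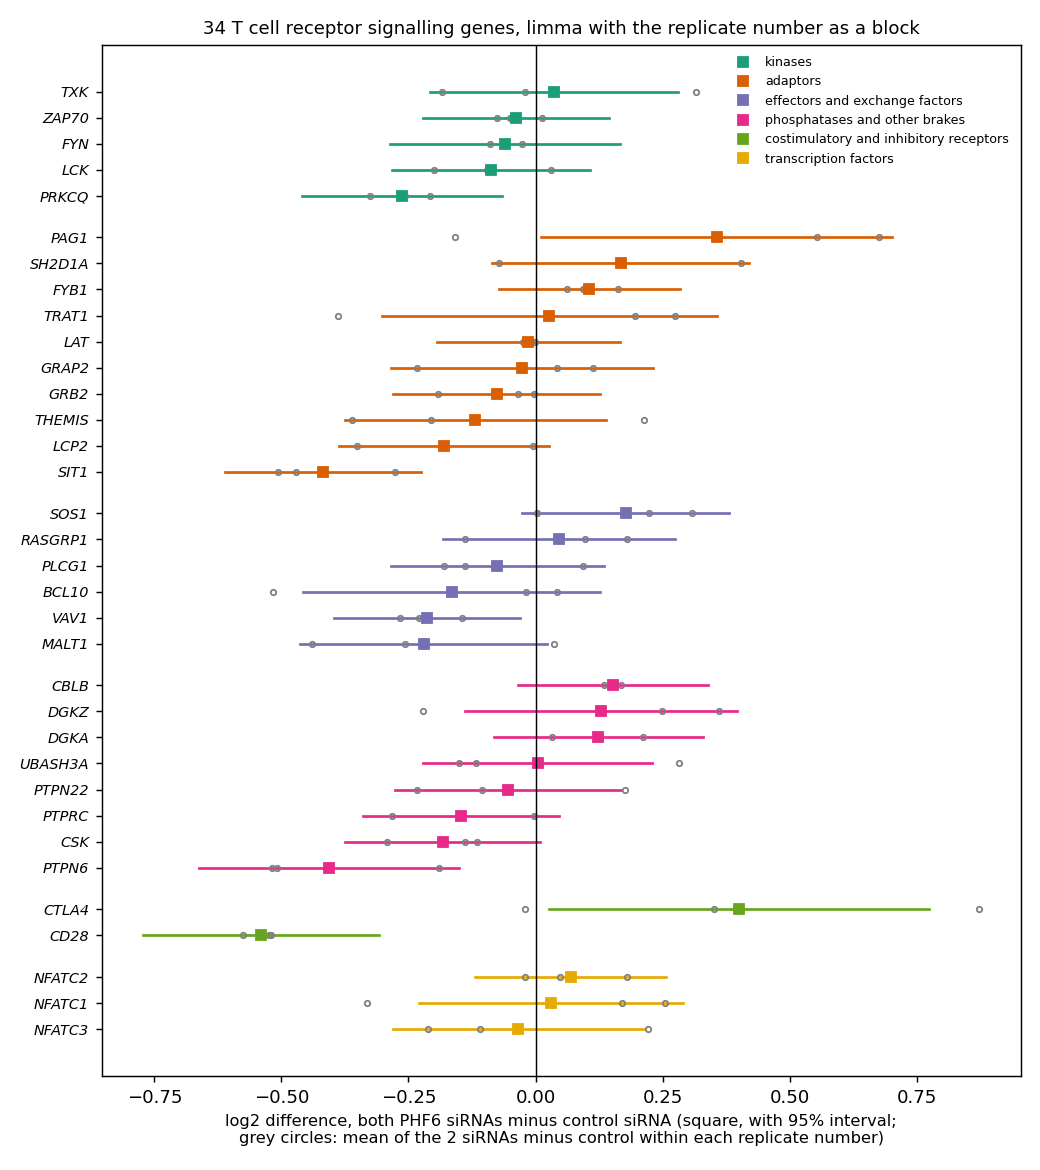
Log2 difference (glog2) of both *PHF6* siRNAs minus control siRNA for the 34 genes, grouped by role. Squares are the limma estimate with its 95% interval from the fit with the replicate block, and grey circles are the differences within each of the 3 replicate numbers. Of the intervals that do not cross 0, those of *CD28*, *SIT1*, *PTPN6*, *PRKCQ* and *VAV1* lie below it and those of *CTLA4* and *PAG1* above it, and after adjustment over all probes *CD28* and *SIT1* passed.

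Among the costimulatory and inhibitory receptors, *CD28*, which adds the second signal that T cells need beside the receptor, had the widest difference of the set. Its values were 9.47, 9.71 and 10.23 with control siRNA, 8.63, 8.81 and 9.62 with siRNA1, and 9.16, 9.57 and 9.79 with siRNA2. Each *PHF6* siRNA array lay below the control array of its own number (6 of 6), while the groups overlapped and replicate 3 was the highest array in each of them. The log2 difference was -0.54 with a standard error of 0.24 without the block (limma adjusted p = 0.673) and 0.104 with it (adjusted p = 0.0314, 95% interval -0.77 to -0.31). The mean difference within replicates 1, 2 and 3 was -0.57, -0.52 and -0.52. For siRNA1 alone it was -0.78 (limma adjusted p = 0.0255 with the block) and for siRNA2 alone -0.30 (adjusted p = 0.212). The direct comparison of siRNA2 with siRNA1 gave 0.48 (limma adjusted p = 0.306 with the block), so the siRNAs were not shown to differ.

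A second probe of *CD28* gave 8.45, 9.02 and 9.09 with control siRNA, 7.96, 8.55 and 8.50 with siRNA1, and 8.20, 8.85 and 8.73 with siRNA2. It too was lower on 6 of 6 arrays than the control of the same number, by -0.39 on average (limma adjusted p = 0.0393 with the block). An exact two-sided permutation of the control position within replicate numbers, 27 arrangements, gave p = 0.111 for the first probe and p = 0.037 for the second, the smallest p it can give. The limma call of *CD28* held with the block under quantile normalization of normexp-corrected signal (adjusted p = 0.0204) and in the deposited table (adjusted p = 0.0307). It was lost with the 75th percentile scaling (adjusted p = 0.0681), with background-subtracted signal (adjusted p = 0.0592) and when any replicate number was left out (adjusted p = 0.23 without replicate 1, 0.117 without replicate 2 and 0.0585 without replicate 3). The percentile scaling also starts from the background-subtracted signal, so here and below its losses and those with that signal are not separate checks.

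*CTLA4*, the inhibitory receptor that competes with *CD28* for its ligands, was dim. It was well above background on 7 arrays, 2 with control siRNA, 3 with siRNA1 and 2 with siRNA2. Its values were 4.88, 5.21 and 4.76 with control siRNA, 4.70, 6.17 and 5.34 with siRNA1, and 5.03, 5.9965 and 4.87 with siRNA2. The high values came from replicate 2, and the groups overlapped. The log2 difference was 0.40 (SE 0.32, limma adjusted p = 0.818, and 0.201 with the block), and it did not pass. A second *CTLA4* probe was well above background on 1 array and was not tested.

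Of the 10 adaptors tested, *SIT1* was lower and passed with the block only, and the others did not pass. SIT1 is a transmembrane adaptor that recruits the phosphatase SHP-2 and dampens receptor signalling. Its values were 12.09, 12.08 and 11.89 with control siRNA, 11.80, 11.53 and 11.31 with siRNA1, and 11.82, 11.68 and 11.45 with siRNA2. All 6 *PHF6* siRNA arrays were below all 3 control arrays. The log2 difference was -0.42 with a standard error of 0.14 without the block (limma adjusted p = 0.644) and 0.086 with it (adjusted p = 0.0382, 95% interval -0.61 to -0.23). The exact permutation within replicate numbers gave p = 0.037, its floor. For each siRNA alone, *SIT1* missed the threshold with the block, at -0.47 for siRNA1 (limma adjusted p = 0.0605) and -0.36 for siRNA2 (adjusted p = 0.0959). As for *CD28*, the call was lost with the 75th percentile scaling (limma adjusted p = 0.0707 with the block), with background-subtracted signal (adjusted p = 0.0743) and on leaving out replicate 1, 2 or 3 (adjusted p = 0.192, 0.141 and 0.146).

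The scaffold *LAT* gave 14.85, 14.99 and 14.98 with control siRNA, 14.84, 14.91 and 14.92 with siRNA1, and 14.82, 15.07 and 14.99 with siRNA2, with a log2 difference of -0.01 and a blocked 95% interval of -0.19 to 0.17. The groups overlapped for *LAT*, with replicate 1 at the low end in all of them. *LCP2*, which encodes the SLP-76 scaffold that partners LAT, gave 11.77, 11.76 and 11.47 with control siRNA, 11.66, 11.31 and 11.27 with siRNA1, and 11.86, 11.52 and 11.32 with siRNA2. It was lower than its own control on 5 of 6 arrays, by -0.18 on average (limma adjusted p = 0.287 with the block). *GRB2* and *GRAP2*, which tie LAT to exchange factors and to SLP-76, gave -0.08 and -0.03. *FYB1*, an adaptor of integrin activation, gave 11.82, 12.29 and 12.29 with control siRNA, 11.90, 12.43 and 12.32 with siRNA1, and 11.92, 12.48 and 12.39 with siRNA2. Each *FYB1* value was higher than that of its own control, by 0.11 on average, less than the gap between replicate 1 and the others (limma adjusted p = 0.471 with the block).

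*SH2D1A*, the SAP adaptor of SLAM receptors, moved with the replicate number more than with the siRNA. Its values were 11.79, 12.97 and 12.28 with control siRNA, 11.86, 13.03 and 12.72 with siRNA1, and 12.05, 12.76 and 12.65 with siRNA2, low in replicate 1 in every group. Its 3 probes gave log2 differences of 0.17, 0.12 and 0.08. *THEMIS*, needed for positive selection of thymocytes, gave -0.12, and *TRAT1*, which binds the receptor complex, gave 0.03. *PAG1*, the membrane anchor of CSK, was dim, well above background on 7 arrays, and gave 0.36 (limma adjusted p = 0.216 with the block). *SKAP1*, the partner of FYB1, was well above background on 2 arrays, 1 with control siRNA, none with siRNA1 and 1 with siRNA2, with group means of 4.63, 4.57 and 4.73, and was not tested.

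None of the 5 kinases passed (0 of 5 by limma with the block, 1 at an unadjusted p under 0.05). *LCK*, the first kinase of the cascade, gave 13.74, 13.71 and 13.72 with control siRNA, 13.69, 13.71 and 13.60 with siRNA1, and 13.60, 13.77 and 13.44 with siRNA2. The groups overlapped, the log2 difference was -0.09, and the blocked 95% interval ran from -0.28 to 0.11. A second *LCK* probe gave -0.12. *ZAP70*, which LCK activates, gave 12.59, 12.54 and 12.41 with control siRNA, 12.55, 12.47 and 12.32 with siRNA1, and 12.53, 12.63 and 12.35 with siRNA2. Its log2 difference was -0.04 with an interval of -0.22 to 0.15. *FYN*, the other SRC family kinase of T cells, gave 13.72, 13.29 and 13.13 with control siRNA, 13.61, 13.03 and 13.08 with siRNA1, and 13.71, 13.50 and 12.99 with siRNA2. Replicate 1 was highest for *FYN* in every group, and the difference was -0.06, as against that of the TEC family kinase *TXK* at 0.04.

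*PRKCQ*, which encodes protein kinase C theta, the kinase that links the receptor to NF-kB, had the most negative difference of the kinases. It gave 10.65, 10.73 and 10.57 with control siRNA, 10.43, 10.33 and 10.25 with siRNA1, and 10.45, 10.62 and 10.23 with siRNA2. Each *PHF6* siRNA array was below the control of its own number, and 1 siRNA2 array lay within the range of the controls. The log2 difference was -0.26 (SE 0.12, limma adjusted p = 0.676, and 0.123 with the block), which did not pass.

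Among the 6 effectors and exchange factors, none passed (0 of 6 by limma with the block, 1 at an unadjusted p under 0.05). *VAV1*, a guanine nucleotide exchange factor that binds the LCP2 scaffold, varied little between replicates, at 13.32, 13.28 and 13.28 with control siRNA, 13.10, 13.06 and 12.99 with siRNA1, and 13.07, 13.20 and 13.03 with siRNA2. All 6 *PHF6* siRNA arrays were below all 3 controls, with a log2 difference of -0.21 (SE 0.10, limma adjusted p = 0.705, and 0.170 with the block). The exact permutation within replicate numbers gave p = 0.037 for *VAV1*, its floor, and the difference did not pass over all probes. *PRKCQ*, *CSK* and *FYB1* reached the same floor. That permutation gave p = 0.0741 for *PTPN6* and p = 0.148 for *CTLA4*. *PLCG1*, the phospholipase that makes inositol trisphosphate and diacylglycerol, gave -0.08. *RASGRP1*, which turns diacylglycerol into RAS activation, gave 0.05. The brightest *SOS1* probe, of the other RAS exchange factor, gave 0.18 and a second one -0.22, so its probes differed in sign. *BCL10* and *MALT1*, partners in the complex that activates NF-kB, gave -0.16 and -0.22 (limma adjusted p = 0.498 and 0.271 with the block). For *MALT1* the values were 6.76, 7.08 and 6.85 with control siRNA, 6.77, 6.42 and 6.51 with siRNA1, and 6.83, 6.85 and 6.67 with siRNA2, level in replicate 1 and lower than control in replicates 2 and 3.

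Of the 8 phosphatases and other brakes, none passed (0 of 8 by limma with the block, 1 at an unadjusted p under 0.05). *PTPN6*, the SHP-1 phosphatase that acts on LCK and ZAP70, came nearest. It gave 10.78, 10.35 and 10.40 with control siRNA, 10.48, 10.11 and 10.08 with siRNA1, and 10.04, 10.22 and 9.70 with siRNA2. It was lower than its own control on 6 of 6 arrays, and the groups overlapped. The log2 difference was -0.41 (SE 0.16, limma adjusted p = 0.648, and 0.0833 with the block), and for siRNA2 alone it was -0.52 (adjusted p = 0.0802 with the block). With a trended and robust variance model added to the block, a setting chosen after the data were seen, *PTPN6* passed (limma adjusted p = 0.04).

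*CSK*, which phosphorylates the inhibitory tyrosine of LCK, averaged 11.28 ± 0.09 with control siRNA, 11.08 ± 0.17 with siRNA1 and 11.12 ± 0.17 with siRNA2 (SD, n = 3). It was lower than its own control on 6 of 6 arrays, by -0.18 on average (limma adjusted p = 0.249 with the block). *CBLB*, a ubiquitin ligase that restrains T cells lacking costimulation, averaged 8.71 ± 0.23 with control siRNA, 8.81 ± 0.16 with siRNA1 and 8.91 ± 0.27 with siRNA2 (SD, n = 3). It was higher than its own control on 6 of 6 arrays, by 0.15 (limma adjusted p = 0.319 with the block), and neither gene passed. The diacylglycerol kinases *DGKA* and *DGKZ* gave 0.12 and 0.13. *PTPN22*, a phosphatase of LCK, gave -0.05. The 4 probes of *PTPRC*, the CD45 phosphatase that keeps LCK primed and whose exons are spliced differently between T cell states, gave -0.15, -0.11, 0.13 and 0.03. Its brightest probe gave 13.87, 14.31 and 13.97 with control siRNA, 13.75, 13.90 and 13.67 with siRNA1, and 13.98, 14.16 and 13.96 with siRNA2, so that siRNA1 was below control in every replicate and siRNA2 was above it in replicate 1. *UBASH3A*, a brake on ZAP70 signalling, gave 0.00 from its brightest probe and 0.24 from a dimmer one, on which 6 of 6 arrays were above their own control (limma adjusted p = 0.129 with the block).

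The 3 NFAT transcription factors, at the end of the calcium arm, did not pass (0 of 3 by limma with the block, 0 at an unadjusted p under 0.05). *NFATC1* gave 10.81, 10.91 and 10.26 with control siRNA, 10.88, 10.42 and 10.17 with siRNA1, and 11.25, 10.73 and 10.70 with siRNA2. Its log2 difference was 0.03, from -0.17 with siRNA1 and 0.23 with siRNA2. *NFATC2* gave 0.07 and *NFATC3* -0.03.

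Counted by groups that do not overlap, all 6 *PHF6* siRNA arrays were below all 3 controls for *SIT1* and *VAV1* (2 of 34), against 2.75% of all genes, and above them for 0 of 34, against 1.06%. Below the control of their own number on 6 of 6 arrays were *CD28*, *SIT1*, *PTPN6*, *PRKCQ*, *VAV1* and *CSK* (6 of 34), against 14.1% of all genes. The opposite held for *CBLB* and *FYB1* (2 of 34), against 7.33%. With counts this small, nothing particular to these genes can be read from the shares.

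The precision of the fit was read from its intervals for both *PHF6* siRNAs against control siRNA. With the block, the 95% intervals of all 34 genes lay within a glog2 difference of 1 in either direction, and those of 29 lay within 0.5. The median width of the interval to either side was 0.223, against 0.34 without the block, where 31 lay within 1 and 18 within 0.5. For siRNA1 alone 33 lay within 1 and 25 within 0.5 with the block, and the interval of *CD28* reached beyond -1. For the dim probes of *CTLA4* and *PAG1* the scale compresses change, so these are no bounds on their fold change.

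The values of these genes also differed between replicate numbers. The means of the 3 replicate numbers spanned a median range of 0.366 over the 34 genes and 0.306 over all genes. For 29 of the 34 (85.3%) this range exceeded the size of the siRNA difference, as it did for 84.6% of all genes. A range of 3 means tends to exceed a single difference even where the replicate number has no effect. The count is therefore a description and no measure of such an effect. The exceptions were *SIT1*, *PTPN6*, *PRKCQ*, *VAV1* and *MALT1*. The range was widest for *SH2D1A* (1.02), *CTLA4* (0.92), *PAG1* (0.90), *THEMIS* (0.89), *CD28* (0.79) and *GRAP2* (0.79). Replicate 3 held the lowest mean for 21 of the 34 genes, replicate 1 for 12 and replicate 2 for 1. Replicate 3 of every group was hybridised on a different slide from replicates 1 and 2, so that for replicate 3 the slide and the culture cannot be told apart.

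**Figure D2:**
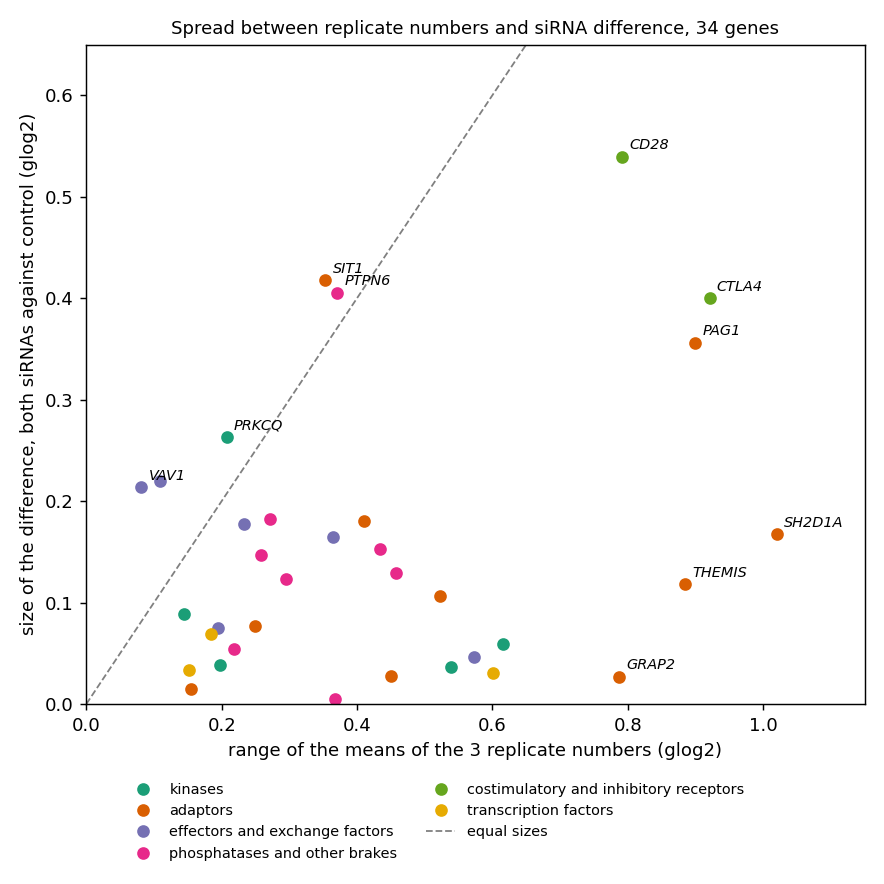
Size of the log2 difference of both *PHF6* siRNAs against control (vertical axis, glog2) against the range of the means of the 3 replicate numbers (horizontal axis, glog2) for 34 genes, coloured by role. The dashed line marks equal sizes, and 29 genes lie to its right. It is a guide only, since a range of 3 means and a single difference are unlike measures. *SIT1*, *PTPN6*, *PRKCQ*, *VAV1* and *MALT1* lie to its left, and *SH2D1A* lies farthest right at 1.02.

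The siRNAs were then compared one by one. Both comparisons share the control arrays. With siRNA1 against control siRNA the median difference of the 34 genes was -0.06, 11 genes were higher and 23 lower, and *CD28* passed with the block (1 of 34, with 8 at an unadjusted p under 0.05), against 0.838% of all genes and 0.545% lower. Without the block 0 passed by limma, with 4 at an unadjusted p under 0.05. With siRNA2 the median was 0.00, 17 genes were higher and 17 lower, and 0 passed by limma with the block (4 at an unadjusted p under 0.05, lowest adjusted p 0.0802), against 1.51% of all genes. Without the block 0 passed by limma, with 2 at an unadjusted p under 0.05. The direct test of siRNA2 against siRNA1 gave 23 genes higher and 11 lower, with a median of 0.06, and 0 passed by limma with the block (3 at an unadjusted p under 0.05), against 0.0341% of all genes. The widest differences between the siRNAs among the described genes were those of *CD28* (0.48) and *NFATC1* (-0.17 with siRNA1 and 0.23 with siRNA2), and neither passed.

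The rest of the pathway was read from lists of other genes. Among 14 tested genes of the receptor complex and its coreceptors, 2 fell with the block and none rose, against 1.21% of all genes lower and 2.36% in either direction. They were *PTCRA*, the pre-T cell receptor alpha chain (-0.73, limma adjusted p = 0.00839), and *CD7*, an early T-lineage surface protein (-0.76, adjusted p = 0.0125). Among 27 other kinases, adaptors and ubiquitin ligases near the receptor, 1 fell, *SLA2*, an adaptor that promotes turnover of the receptor (-0.51, limma adjusted p = 0.0224 with the block), and none rose. The calls of *PTCRA* and *CD7* were lost in that fit without replicate 1 (limma adjusted p = 0.0573 for both) and without replicate 2 (0.102 and 0.107). The call of *SLA2* was lost without replicate 1, 2 or 3 (limma adjusted p = 0.205, 0.107 and 0.0839). The counts were 0 of 19 in the calcium, calcineurin and NFAT arm and 0 of 21 in the RAS, MAP kinase and NF-kB arm (limma with the block, 4 at an unadjusted p under 0.05 in each). Of 20 transcripts that receptor engagement induces, 12 were tested and 0 passed (limma with the block, 3 at an unadjusted p under 0.05). *IL2*, *NR4A1*, *EGR3*, *IRF4* and *TNFRSF9* were well above background on no array, and *CD69* on 1. Without the block 0 genes passed by limma in each of these lists.

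The labelled cell type was read from its markers, and all 14 T-lineage and cortical thymocyte markers, *TLX1* and the *CD3* genes among them, were well above background on all 9 arrays. Markers of other lineages were measured too. Of 7 B-lineage markers 3 were above background on all arrays while *CD22* and *EBF1* were on none. Of 6 NK markers *GNLY*, *NKG7* and *NCR1* were on all arrays while *NCAM1*, *KLRD1* and *KLRF1* were on none. Of 8 monocyte and macrophage markers 3 were on all arrays and 4 on none. Of 5 erythroid markers 3 were on all arrays and 2 on none. *GNLY* (-0.56, limma adjusted p = 0.0243 with the block), *NKG7* (-0.43, adjusted p = 0.0307) and *CD79B* (-0.48, adjusted p = 0.0417) fell with *CD28* and *SIT1*. As with those genes, these calls were lost with the 75th percentile scaling (limma adjusted p = 0.0689, 0.0626 and 0.0933 in that order), with background-subtracted signal and without replicate 1, 2 or 3. The other tested NK, B-lineage, monocyte and erythroid markers did not pass with the block. Of the T-lineage markers, *CD7* fell further (-0.76, limma adjusted p = 0.0125 with the block), and the others did not pass. The *CD7* call held with the 75th percentile scaling (limma adjusted p = 0.0353) and with background-subtracted signal (adjusted p = 0.0338). It was lost without replicate 1 or 2, as given above. Over all genes, 1.21% passed lower in the fit with the block and 2.36% in either direction. The summed values of the 3 measured NK markers were 27.09 to 28.17 with control siRNA, 25.89 to 27.03 with siRNA1 and 26.23 to 27.42 with siRNA2. Those of the 4 tested B-lineage markers were 33.89 to 34.68, 32.67 to 34.62 and 32.78 to 33.53 in the same order. The 4 tested monocyte and macrophage markers summed to 22.75 to 23.21, 22.86 to 23.01 and 22.73 to 23.14. The 3 tested erythroid markers summed to 24.29 to 25.28, 24.38 to 25.53 and 23.75 to 25.08. The 14 T-lineage and cortical thymocyte markers summed to 172.8 to 179.5, 171.8 to 177.2 and 172.9 to 177.1. The labels give a single cell line and no fraction of other cells. The part of the NK and B-lineage transcripts in the values of *CD28* and *SIT1* was not tested. In bulk RNA, fewer cells of a type and less RNA per cell cannot be told apart.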

How the data were processed

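RNA of 9 ALL-SIL samples was measured on one-colour arrays of a custom Agilent design, and groups and replicate numbers were taken from the sample labels. The authors deposited for each spot the fluorescence intensity read by Feature Extraction (10.5.1.1 in the file headers, 9.1 in the submitters' processing notes), not normalized between arrays, with flags of 0 or 1 for spots above background, outliers and saturation. The authors also deposited a table of normalized log2 values, made with VSN per the study's methods, whose input signal is not given in the sources used here. It served as an alternative and correlated at 0.9936 to 0.999 per array with the values computed here.

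Code written here refitted the vsn model to the median intensities (least trimmed squares quantile 0.9, 7 iterations). Outlier spots were left out and repeat spots averaged, and no spot was saturated. Between 29694 and 33746 probes per array were well above background, and 33595 of 57176 probes were tested. Transcript identifiers matched a symbol in a RefSeq gene table (GRCh38.p14) for 25728 probes. Precision is limited by how many arrays there are and by how far a probe exceeds background.

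The comparisons used limma 3.58.1 in R 4.3.3, fitted to the 9 arrays together, and p was corrected by Benjamini-Hochberg over all tested probes at a threshold of 0.05. The methods name no pairing for the arrays, so the fit without a block came first. The replicate numbers of the labels were taken as pairing the samples, since deviations from the group mean correlated at 0.311 to 0.745 (median 0.601) in all 9 pairs with the same number. In 18 pairs with different numbers the correlations were -0.569 to 0.134. Deviations within a group sum to 0, which pushes these down, so they are no separate evidence. Replicate 3 was on its own slide, so its number and its slide are not separated here. Simulated data (33509 probes, both siRNAs against control) were built with the replicate means and the residual spread of the blocked fit. They therefore favour the block by construction and cannot show which fit suits the real arrays. On them the fit recovered 0% of log2 changes of 0.5 and 55% of changes of 1 without the block, and 66% and 99% with it. There were 0 false calls without the block and 16 with it. The genes, the lists and the tests were chosen with earlier results of these data known. Full statistics are given for genes that passed in any comparison with or without the block and, up to 6 genes, for those with the smallest p with the block. Values per array or group means of other genes were added after their values were seen. Alternatives changed the normalization, signal, filter, outliers, slide, variance model, probe choice and samples. The percentile alternative changed scaling and signal together, since it used log2 of the background-subtracted signal.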

Additional observations from a re-analysis of the deposited data

How the results depend on the processing

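No log2 difference of *CD28*, *SIT1*, *PTPN6*, *PRKCQ*, *VAV1* or *CTLA4* changed sign under any of 31 settings (29 for *CTLA4*). Of the other 28 genes, 10 kept their sign in all settings and 0 passed in any for both siRNAs. *CD28* ranged from -0.71 to -0.33, *SIT1* from -0.49 to -0.34, *PTPN6* from -0.51 to -0.27, *PRKCQ* from -0.31 to -0.21, *VAV1* from -0.25 to -0.15 and *CTLA4* from 0.16 to 0.70. For both siRNAs *CD28* and *SIT1* passed in 5 settings each, all of them with the replicate block, and *PTPN6* in 1. The block alone changed no call among the 34 genes beyond those of *CD28* and *SIT1*. The split of 14 higher and 20 lower genes became 18 and 16 under normexp with quantile normalization and without control siRNA replicate 2, and 11 and 23 with the 75th percentile, with background-subtracted signal and without control siRNA replicate 3, while the median of all genes lay between -0.07 and -0.01.

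Values follow in the order both siRNAs, siRNA1, siRNA2, then siRNA2 against siRNA1. Over all tested probes, 919, 316, 551 and 13 passed with the replicate block, 1274, 480, 915 and 9 with block, normexp and quantile normalization, 855, 262, 474 and 10 with block and deposited table, 1585, 598, 1000 and 15 with the block and a filter on all 9 arrays, and 1903, 854, 1271 and 50 with the block and a trended, robust variance, added after the data were seen. The first 3 were 272, 38 and 53 with the block and 75th percentile, and 222, 33 and 70 with the block and background-subtracted signal. The blocked fit gave 46, 36, 15 and 4 without replicate 1, 5 and 9 (both siRNAs and siRNA1) without replicate 2, and 676, 135, 346 and 25 without replicate 3. Without the replicate block, slide as a block gave 24, 11, 11 and 6. The 75th percentile gave 5, 6 and 2, normexp and quantile 5 for both siRNAs, background-subtracted signal 0 and 1 for siRNA1 and siRNA2, the filter on all arrays 6 for siRNA1 and 4 between the siRNAs, and a fit of the compared groups alone 0 for siRNA1. Leaving out single arrays gave 0 to 7 for siRNA1, 0 to 4 for siRNA2 and 0 to 11 between the siRNAs.

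Of the 34 genes, the block let 2 pass for both siRNAs and 1 for siRNA1, alone or with the deposited table, and 2 and 2 with normexp and quantile normalization or with the filter on all arrays. With the trended variance 3, 2 and 2 passed for both siRNAs, siRNA1 and siRNA2. Without replicate 3 the block left 1, *CD28* with siRNA1, and 0 for both siRNAs. The median of siRNA2 against siRNA1 was 0.026 in place of 0.06 with normexp and quantile normalization, with or without the block, and spanned 0.0101 to 0.125 on leaving out single arrays, and those of both siRNAs, siRNA2 and siRNA1 against control spanned -0.088 to 0.039, -0.061 to 0.083 and -0.162 to -0.00692. The cause of these shifts was not tested.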
